A study of Homo sapiens with 7 samples.

Results

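ZNF143 chromatin loops were listed in CTCF-AID cells before and after CTCF was degraded, and the 2 lists are compared here for how many partners each loop anchor had, which anchors exchanged partners, and whether the loops gained without CTCF passed over sites that anchor CTCF loops in wild-type cells. The members are all loops of the ZNF143 lists of CTCF-AID cells at 0 h and 24 h of auxin, chosen by sample and not by any measured value: 40405 loops at 0 h and 20587 at 24 h, together 60992 of the 135475 loops in the 7 lists of the series. The assay was HiChIP, in which DNA ends that lie near each other in fixed nuclei are cut, ligated and enriched with an antibody, so that a loop is a pair of distant anchors joined by sequenced read pairs. All cells were HEC-1-B, an established human uterine adenocarcinoma line, or derived from it. Both CTCF-AID libraries came from cells in which CTCF carries a degron (AID), a tag through which auxin (IAA) leads to breakdown of the protein where the plant receptor TIR1 is expressed. The 24 h cells received auxin at 500 μM and the 0 h cells none. The landmarks were 3 further lists: CTCF, RAD21 and ZNF143 loops of unmodified wild-type HEC-1-B cells. Each group held 1 library, so there was no replicate and no test, and intervals below (95%) cover counting error within those libraries alone. Whether the CTCF-AID line was a single clone is not given in the labels, and CTCF loss was not measured in these lists.

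CTCF is a zinc-finger protein that halts the ring-shaped cohesin complex as it extrudes chromatin, so that CTCF sites become the feet of loops and borders between neighbouring domains. RAD21 is a cohesin subunit. ZNF143 is a zinc-finger protein that binds a sequence motif found mostly at promoters, and it has been studied as a factor at loops between promoters and distal elements. A locus at which CTCF acts as a border is one over which contacts are usually less frequent.

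An anchor is, in what follows, a stretch covered by overlapping anchors of the 0 h and 24 h lists (at least 1 bp shared), and its number of partners, or degree, is the number of distinct anchors to which loops of one list join it. Anchor positions are given in hg19, the build in the submitters' processing notes, counted from 1. No annotation of that build was used, so anchors carry coordinates and no gene names. The lists begin at a count of 2, which makes a missing loop one with fewer counts or without a called anchor. The total count was 143119 at 0 h and 102962 at 24 h, which adds up the listed loops only, and the sequencing depth is unknown. At 0 h 89.5% and at 24 h 86.8% of loops had an even count, against 68.1 to 69.1% in the 3 wild-type lists, so counts of the CTCF-AID lists may have another scale.

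Most 0 h anchors were not anchors at 24 h. Of 21126 anchors at 0 h, 8101 (38.3%, 37.7 to 39.0) were anchors again at 24 h, and 1217 anchors were listed at 24 h alone, which gave 9318 in all. Persistence differed with what the same place did in wild-type cells. Anchors that lay at a wild-type ZNF143 loop anchor but away from any wild-type CTCF loop anchor (5 kb extension) persisted in 2134 of 3212 cases, 66.4% (64.8 to 68.1). Anchors at both kinds of wild-type anchor persisted in 46.6% of 5307 cases (45.3 to 48.0), those at neither in 29.6% of 7884 (28.6 to 30.6), and those at a wild-type CTCF anchor alone in 24.6% of 4723 (23.4 to 25.8). The places used by both proteins in wild-type cells thus lay between those used by ZNF143 alone and those used by CTCF alone. Mean degree differed between these classes, though not in the order of persistence throughout. At 0 h it was 6.42 at wild-type ZNF143 anchors away from CTCF, 5.82 at both kinds, 2.19 at neither and 2.54 at CTCF anchors alone, the last having the higher degree but the lower persistence. The part of degree in persistence was not tested.

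Degree followed a long-tailed distribution at both times. The median anchor had 2 partners at 0 h and 2 at 24 h, and anchors with 1 partner made up 31.0% (30.4 to 31.7) and 30.7% (29.8 to 31.6). The tail was heavier at 24 h by the share of anchors with 10 or more partners. These were 1429 of 21126 (6.76%) at 0 h and 921 of 9318 (9.88%) at 24 h. By another measure it was alike: the 1% of anchors with the most partners held 9.63% of pair ends at 0 h and 9.54% at 24 h. Mean degree was 3.82 at 0 h and 4.41 at 24 h, a ratio of 1.15 (1.12 to 1.19). Chromosome 19 carried most of the difference in mean degree. Its mean degree was 9.56 at 0 h and 11.9 at 24 h, and without it the means were 3.33 and 3.53, a ratio of 1.06. The highest degree was 89 at 0 h and 77 at 24 h, at different anchors.

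**Figure D1:**
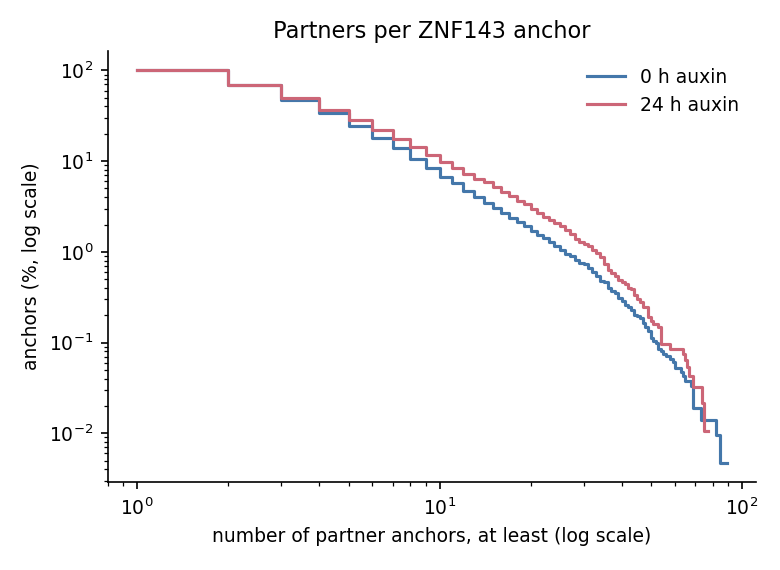
Share of anchors (percent, log scale) with at least a given number of partner anchors (log scale) at 0 h and 24 h of auxin, 1 library each. The curves coincide at 1 partner, and the 24 h curve lies above the 0 h curve at 10 partners (9.88% against 6.76%).

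Those distributions compare different anchors. For the 8101 anchors present at both times, degree was lower at 24 h in the lists as deposited. Mean degree was 5.89 at 0 h and 4.79 at 24 h, and 4425 anchors (54.6%, 53.5 to 55.7) had fewer partners, 1748 (21.6%) as many and 1928 (23.8%, 22.9 to 24.7) more. At least 2-fold fewer partners were seen at 2476 anchors (30.6%) and at least 2-fold more at 797 (9.84%). Anchors kept their standing among each other, with a Pearson r of 0.911 and a Spearman rho of 0.700 between the degrees at 0 h and 24 h over these 8101 anchors, a description only, since anchors share libraries and partners. The direction depended on weak loops. At a minimum count of 4 in both lists 33.2% of shared anchors had fewer and 31.2% more partners, at 5 the shares were 25.7% and 33.0%, and at 10, where the lists held 1909 and 2094 loops, 184 of 1117 anchors (16.5%) had fewer and 373 (33.4%) more.

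Anchors at wild-type CTCF anchors lost more of their degree than the others. Of the shared anchors, 3634 lay at a wild-type CTCF loop anchor, and their summed degree was 23760 at 0 h and 18192 at 24 h, a ratio of 0.766. The 4467 others had sums of 23955 and 20630, a ratio of 0.861. At least 2-fold fewer partners were seen at 34.6% (33.1 to 36.2) of the former and 27.2% (26.0 to 28.6) of the latter, beside the 30.6% of all shared anchors. At least 2-fold more were seen at 6.93% (6.15 to 7.81) and 12.2% (11.3 to 13.2), beside 9.84%. The ratio of the 2 ratios, 0.889 (0.868 to 0.910), stayed below 1 under every alternative run, between 0.848 and 0.885, so this contrast between anchor classes did not share the dependence on weak loops described above. The classes differed in starting degree, with means at 0 h of 6.54 at CTCF anchors and 5.36 at the others. Over all shared anchors, mean degree went from 1 to 1.65 for those with 1 partner at 0 h. It went from 6.46 to 4.62 for those with 5 to 9, and from 31.1 to 27.0 for those with 20 or more. No alternative compared the classes at like starting degree.

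The most connected anchors lay on chromosome 19, at positions 47353329 to 47355208, 49147305 to 49150694 and 49222747 to 49225635 at 0 h. Their degrees at 0 h and 24 h were 89 and 65, 84 and 74, and 81 and 77. At 24 h the last of these led, followed by the second and by 49297700 to 49299717, whose degree was 68 at 0 h and 73 at 24 h. All 4 kept most of their standing, yet the partners of each changed: 38 of 89, 47 of 84, 47 of 81 and 44 of 68 partners at 0 h were listed at 24 h. Most of the partners lost were no longer anchors: 18 of 51, 10 of 37, 10 of 34 and 4 of 24 were still anchors at 24 h. The summed count of the anchor at 49297700 was 847 at 0 h and 1163 at 24 h, and that of the anchor at 49222747 was 775 and 1113, whereas the anchor at 47353329 had 810 and 764. All 4 took part in fewer wild-type CTCF loops than wild-type ZNF143 loops. They anchored 6, 0, 2 and 11 CTCF loops in the order 49297700, 49222747, 47353329 and 49147305, against 46, 43, 46 and 58 ZNF143 loops.

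The anchor at 47353329 shows the change of partners in detail. Of its 51 partners listed at 0 h alone, 25 lay within 500 kb, and of its 27 partners listed at 24 h alone, 4 did. The median distance to its partners was 504 kb at 0 h and 898 kb at 24 h. Its strongest partner at both times lay 65.9 kb to the left, with a count of 72 at 0 h and 125 at 24 h. Its strongest partner at 0 h alone, 102.5 kb to the left at 47250892 to 47252581, had a count of 39 and had 11 partners at 0 h and none at 24 h, where it was no longer an anchor. Its strongest partner at 24 h alone, 125.5 kb to the right at 47478365 to 47481205, had a count of 95 and was no anchor at 0 h but had 16 partners at 24 h. Wild-type CTCF anchors between this anchor and its partners averaged 19.4 for lost and 38.9 for gained partners, with 0 between it and the strong gained partner.

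**Figure D2:**
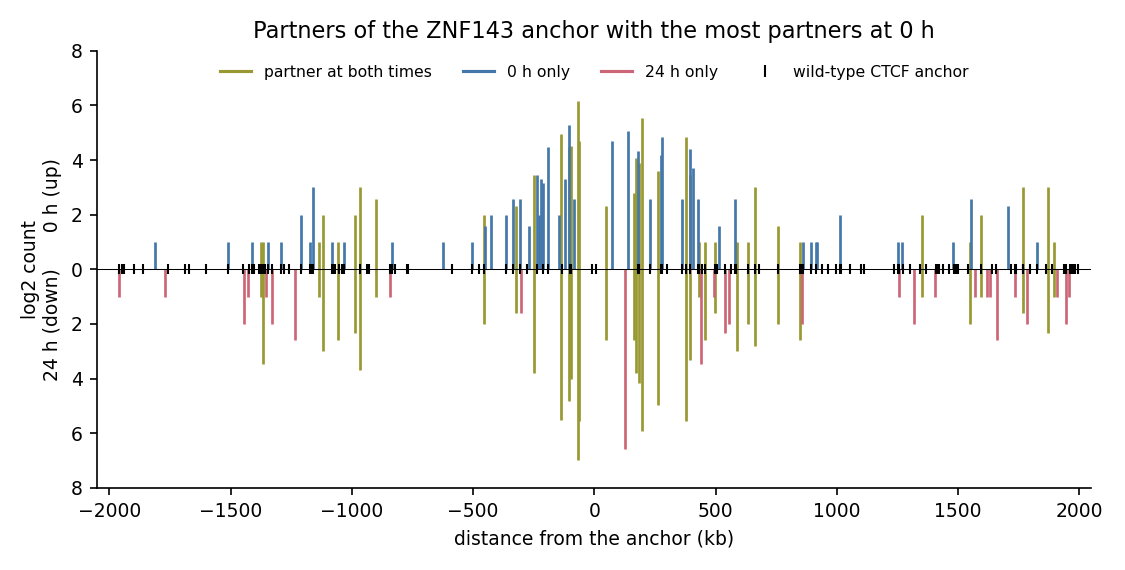
Partners of the chromosome 19 anchor with the highest degree at 0 h (89 partners at 0 h, 65 at 24 h), by distance from the anchor in kb. Bars give log2 of the loop count, upward at 0 h and downward at 24 h, ticks are wild-type CTCF loop anchors, and 25 of the partners at 0 h alone but 4 of those at 24 h alone lie within 500 kb.

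The anchors with the largest differences in degree were also on chromosome 19. The largest differences downward were from 59 to 34 partners at 4062492 to 4067439, from 89 to 65 at 47353329, and from 68 to 46 at 4790697 to 4792456. The largest upward were from 9 to 27 at 58427266 to 58429390, from 7 to 22 at 48822888 to 48825784, and from 12 to 25 at 56145563 to 56147795. The first of these kept all 9 of its 0 h partners and added 18. The anchor at 48822888 kept 4 of 7 and that at 56145563 kept 5 of 12. Each of the 18, 18 and 20 added partners had been an anchor at 0 h, so at these 3 places the additions joined anchors that were already listed. The anchor at 48822888 had 0 partners to the left at 0 h and 8 at 24 h.

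A change in the listed partners was common among anchors present at both times. No partner was shared between 0 h and 24 h at 2764 of the 8101 anchors (34.1%, 33.1 to 35.2), the partners were exactly the same at 160 (1.98%, 1.69 to 2.30), and the other 5177 (63.9%) kept some. Of the 2764, 966 (34.9%) had 0 h partners that were all no longer anchors at 24 h, and 952 (34.4%) had 1 partner at 0 h. Having no partner in common, called complete switching, was rarer at higher degree, where an anchor has more partners to lose. It was seen at 75.0% (72.5 to 77.3) of shared anchors with 1 partner at 0 h, 55.2% (52.5 to 57.9) of those with 2, 13.6% (12.2 to 15.0) of those with 5 to 9, and 12 of 872 (1.38%) of those with 10 to 19. Among anchors with 20 or more it was seen at 0 of 344, which allows a share of up to 0.872% by the limit of 3 counts (Wilson upper bound 1.10%). Anchors with few partners were also listed again less often: 19.4% (18.4 to 20.3) of anchors with 1 partner at 0 h were anchors at 24 h, against 95.8% (93.2 to 97.5) of those with 20 or more. Among partners that were themselves still anchors, the share kept was 45.2% for anchors with 1 partner, 46.3% for 5 to 9 and 73.2% for 20 or more, so the highest-degree anchors also kept a larger share of the partners that were still anchors.

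**Figure D3:**
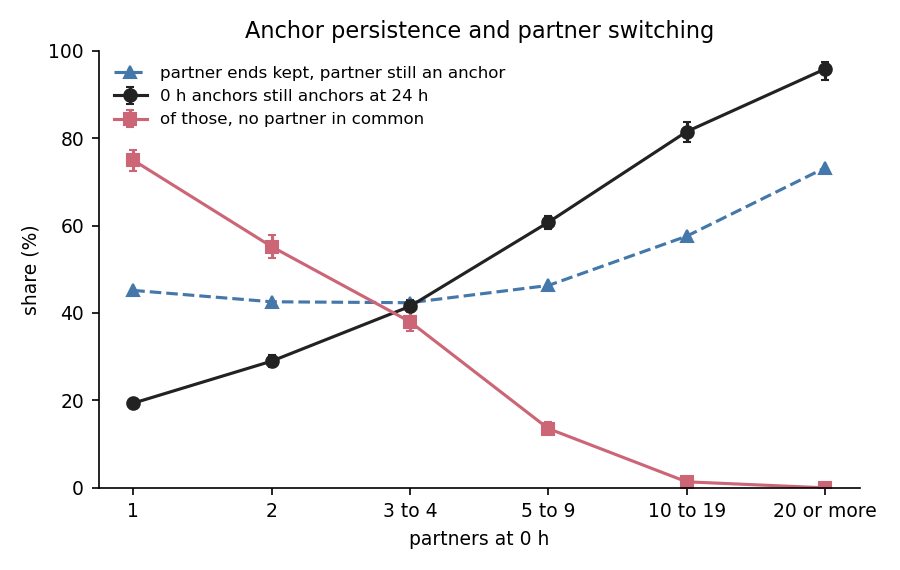
The plot gives 3 shares (percent) by the number of partners at 0 h: 0 h anchors that were anchors at 24 h, anchors among these without any partner in common, and partner ends kept where the partner was still an anchor. Bars are 95% Wilson intervals for the first 2 shares; persistence goes from 19.4% to 95.8% and complete switching from 75.0% to 0 of 344.

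Most gained pairs joined anchors already listed at 0 h, as did most 24 h pairs of any kind. Pairs of anchors listed at 24 h and not at 0 h numbered 12374, of which 10209 (82.5%, 81.8 to 83.2) joined anchors that were both listed at 0 h, 2042 (16.5%) joined 1 such anchor to a new anchor, and 123 (0.994%) joined 2 new anchors. The 32216 pairs listed at 0 h alone were different: both anchors were still listed at 24 h for 6743 (20.9%, 20.5 to 21.4), 1 of them for 17867 (55.5%) and neither for 7606 (23.6%). The lists differ in size, so these shares need those of all pairs beside them: of all 24 h pairs 18390 of 20555 (89.5%) joined anchors listed at 0 h, and of all 0 h pairs 14924 of 40397 (36.9%) had both anchors listed at 24 h. Pairs listed at both times have both anchors at both times by definition, so nothing is read from these differences. Among the 14924 pairs at 0 h whose anchors were both listed at both times, 8181 (54.8%, 54.0 to 55.6) were listed at 24 h, and they made up 44.5% (43.8 to 45.2) of the 18390 such pairs at 24 h. With minimum counts of 3 and 10 in both lists retention was 71.4% and 87.1%, and at 10, 126 of 1117 shared anchors (11.3%) had no partner in common. Each minimum also redefines which anchors are present at both times. At 10 the mean degree at 0 h was 1.95, so an anchor could qualify through the retained pair alone. Of the 0 h loops with at least 10 counts, 1073 were kept and 836 lost by the loop matching described below. The 8181 pairs listed at both times had a median span of 175 kb, and their count was higher at 24 h for 3783 (46.2%) and lower for 2094 (25.6%). Their median count was 4 at 0 h and 4 at 24 h. Gained and lost pairs had a median count of 2, the lowest in the lists, whether both, 1 or neither of their anchors was listed at the other time. Of the 10209 gained pairs between old anchors, 6953 (68.1%) joined anchors that had a common partner at 0 h. The lost pairs between anchors listed at both times shared a partner at 24 h in 4887 of 6743 cases (72.5%). Both shares were lower than those of the pairs listed at both times, of which 85.7% had a common partner at 0 h and 83.9% at 24 h. The gained and lost pairs were also longer, with median spans of 459 kb and 358 kb, and the part of span in this difference was not tested.

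The 3 completely switched anchors with the highest total counts all had a lower total at 24 h. The anchor at chromosome 21, 15754225 to 15756478, had 6 partners at 0 h with counts of 2 to 24 and a total of 59, the strongest 21.2 kb away, and none of the 6 was an anchor at 24 h. At 24 h it had 2 partners with a count of 2 each, 536 kb and 1100 kb away, neither of them an anchor at 0 h. At chromosome 1, 234746129 to 234748446, 9 partners (total count 52) gave way to 1 partner with a count of 2 at 204 kb, although 5 of the 9 were still anchors. At chromosome 10, 111984969 to 111987108, 7 partners (total 33) on both sides gave way to 3 partners (total 18), all to the right, with counts of 6, 2 and 10 at 272, 640 and 692 kb. The strongest 24 h partner of this last anchor, at 692 kb, was already an anchor at 0 h.

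Gained partners lay farther away than lost ones. This was compared within each of the 6922 shared anchors that had both a lost and a gained partner. The median distance over these anchors was 278 kb for lost and 435 kb for gained partners, the median anchor's gained partners were 1.48 times as far as its lost ones, and gained partners were farther at 4455 anchors (64.4%, 63.2 to 65.5). The shares were alike for anchors at a wild-type CTCF anchor (65.7%, 64.0 to 67.3) and away from one (63.3%, 61.7 to 64.8), and it was 68.7% at a minimum count of 10. Lost and gained partners lay on the same side of an anchor slightly more often than not. Where an anchor had 1 of each, they lay on opposite sides in 377 of 820 cases (46.0%, 42.6 to 49.4). Among the 3819 anchors with at least 3 partners at both times, 835 (21.9%, 20.6 to 23.2) had the majority of partners on the other side at 24 h. All partners lay on 1 side at 311 of them at 0 h (8.14%, 7.32 to 9.05) and at 429 at 24 h (11.2%, 10.3 to 12.3).

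**Figure D4:**
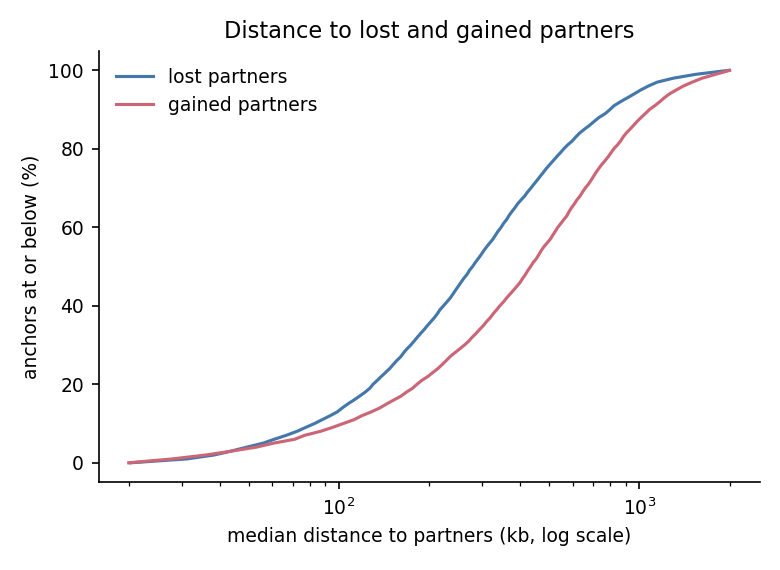
Cumulative share of the 6922 anchors with both lost and gained partners (percent) by the median distance to those partners in kb (log scale). The gained curve lies to the right of the lost curve, with medians of 435 kb and 278 kb.

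More wild-type CTCF anchors stood between an anchor and its gained partners than its lost ones. The mean number per partner, averaged over the 6922 anchors, was 5.41 for lost and 7.52 for gained partners. It was higher for gained partners at 4232 anchors (61.1%, 60.0 to 62.3), lower at 2331 (33.7%, 32.6 to 34.8) and equal at 359. Since longer loops pass over more sites, loops were then compared within classes of span. For this, a 0 h loop was called kept when a 24 h loop had both anchors within 5 kb of its own (9967 of 40405, 24.7%) and otherwise lost (30438), and a 24 h loop without such a match at 0 h was called gained (11249 of 20587, 54.6%). A loop was said to pass over a CTCF anchor that lay wholly between its own anchors, at least 5 kb from each, among 16948 merged anchors of wild-type CTCF loops.

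Gained loops passed over at least 1 wild-type CTCF anchor more often than lost loops of like span. The shares over all spans were 87.7% (87.1 to 88.3) for gained, 78.0% (77.5 to 78.5) for lost and 76.1% (75.2 to 76.9) for kept loops, but gained loops were longer. Weighted to the span classes of gained loops, the shares were 87.7% for gained, 84.8% for lost and 87.5% for kept loops. The weighted difference from lost loops was 2.86 percentage points (2.24 to 3.48) and that from kept loops 0.228 points (-0.534 to 0.990), an interval that includes 0. Counting only anchors of CTCF loops with at least 5 counts, the weighted shares were 66.8% for gained and 59.7% for lost loops, a difference of 7.06 points (6.11 to 8.01). At 20 to 50 kb, where passing over a CTCF anchor was least common, it was seen in 200 of 622 gained loops (32.2%, 28.6 to 35.9), in 28.2% of lost loops (26.7 to 29.8) and in 33.2% of kept loops (31.0 to 35.5). At 200 to 500 kb the shares were 92.1% for gained, 88.3% for lost and 89.4% for kept loops, and at 500 to 1000 kb they were 96.6%, 94.4% and 95.3%. At 50 to 100 kb gained loops passed over an anchor less often than kept loops, 60.5% against 67.6%, a difference of -7.10 points (-11.1 to -3.13), and lost loops did so in 57.1%. Gained minus lost loops gave 3.44 points (-0.275 to 7.08) there, an interval that includes 0. Gained minus kept loops gave 2.73 points (1.22 to 4.25) at 200 to 500 kb and 1.29 points (0.0122 to 2.75) at 500 to 1000 kb. In the remaining classes the interval of gained minus kept loops includes 0. The density of CTCF anchors inside the loops, which does not reach a ceiling, was 1.82 per 100 kb in gained, 1.47 in lost and 1.86 in kept loops of 200 to 500 kb. Weighted over the span classes, the density in gained loops was 1.20 times that in lost loops (1.17 to 1.22).

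Crossing was a second reading of skipping, taken on a smaller set of CTCF loops. A loop was said to cross a wild-type CTCF loop when the midpoint of 1 of its anchors lay inside that loop and the other outside. Both midpoints had to lie more than 5 kb from the anchors of the CTCF loop, and the 4102 wild-type CTCF loops with at least 5 counts were used. A loop with an anchor at the foot of a CTCF loop thus could not cross that CTCF loop. Both ends lay at wild-type CTCF anchors in 31.6% of lost and 18.7% of gained loops, and the part of this in the crossing shares was not tested. Of the gained loops 4486 (39.9%, 39.0 to 40.8) crossed at least 1, against 29.8% of lost loops (29.3 to 30.3) and 35.5% of kept loops (34.5 to 36.4). With the span weights, the shares were 39.9% for gained, 32.2% for lost and 39.9% for kept loops, a difference of 7.66 points (6.60 to 8.72) from lost and -0.0199 points (-1.59 to 1.55) from kept loops. With CTCF loops of at least 10 counts the difference from lost loops was 3.49 points (2.70 to 4.29). The comparison with kept loops depended on the settings: it gave 2.64 points (0.258 to 5.01), 2.57 points (0.0485 to 5.09) and 3.17 points (0.0719 to 6.27) at minimum counts of 3, 4 and 5, and -1.89 points (-3.44 to -0.342) with loops matched within 10 kb. By span class the difference from lost loops was 1.71 points (-0.966 to 4.78) at 20 to 50 kb, 1.78 (-1.30 to 5.05) at 50 to 100 kb, 5.76 (2.99 to 8.59) at 100 to 200 kb, 11.6 (9.62 to 13.7) at 200 to 500 kb, 4.80 (2.60 to 7.01) at 500 to 1000 kb and 10.6 (8.06 to 13.1) at 1000 to 2000 kb. In the 2 shortest classes the interval includes 0. Gained minus kept loops gave -1.15 points (-4.16 to 2.15) at 20 to 50 kb, -8.76 points (-12.3 to -5.05) at 50 to 100 kb, -3.53 points (-6.77 to -0.261) at 100 to 200 kb 2.84 points (0.262 to 5.42) at 200 to 500 kb, -1.79 points (-5.10 to 1.50) at 500 to 1000 kb and 3.68 points (-0.919 to 8.19) at 1000 to 2000 kb. In these lists gained loops of 50 to 200 kb crossed less often than kept loops and those of 200 to 500 kb more often. In the other classes the interval includes 0. Loops share anchors and the intervals cover counting error alone, so no direction by span class is concluded, least of all where a bound is -0.261 or 0.262. Within single chromosomes, gained loops crossed more often than lost loops on 20 of 23 and passed over more often on 18 of 23.

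**Figure D5:**
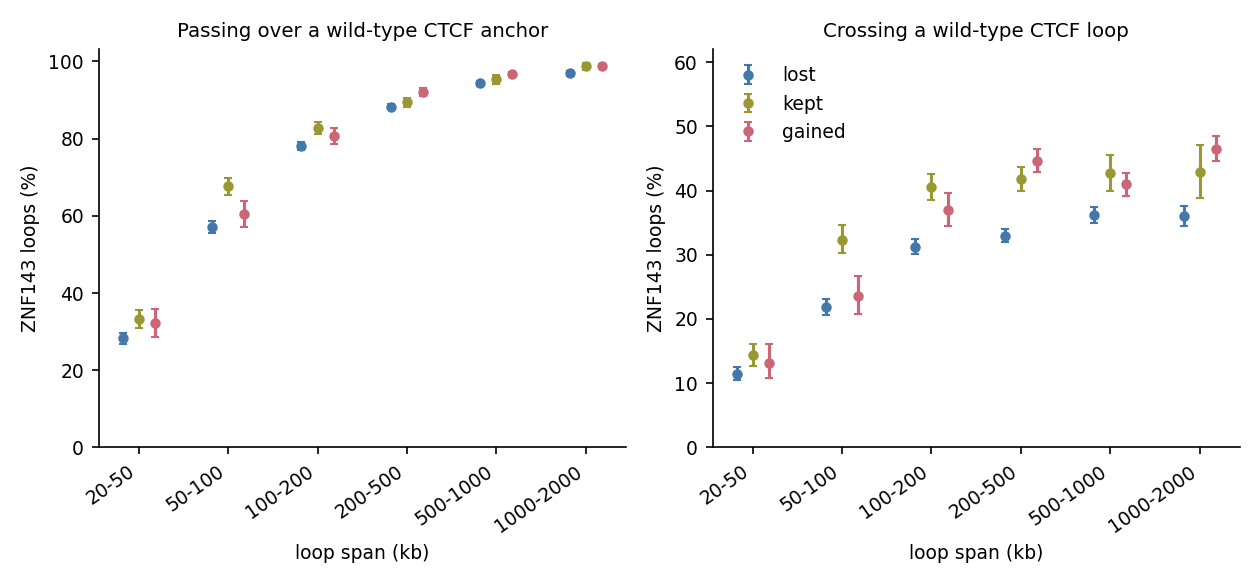
Share of lost, kept and gained ZNF143 loops (percent, with 95% Wilson intervals) that pass over a wild-type CTCF anchor (left) or cross a wild-type CTCF loop of at least 5 counts (right), by loop span in kb. Crossing by gained loops exceeds that by lost loops most at 200 to 500 kb (44.6% against 33.0%), whereas kept loops are at 41.8% there.

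Read from the 0 h side, loops that crossed a wild-type CTCF loop were kept more often than loops of like span that did not. The shares kept were 39.9% (37.4 to 42.5) against 28.0% (26.6 to 29.3) at 50 to 100 kb, 34.1% (32.3 to 35.9) against 25.6% (24.4 to 26.8) at 100 to 200 kb, and 27.9% (26.6 to 29.4) against 21.0% (20.1 to 22.0) at 200 to 500 kb, beside 24.7% of all 0 h loops. Only span was held alike. On chromosome 19, 42.3% of 0 h loops were kept, against a median of 18.4% over chromosomes. That chromosome held 33.8% of kept and 15.1% of lost loops, and its part in this contrast was not tested.

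The excess of crossing was smaller among anchors present at both times. When only loops between anchors present at both times were compared, a restriction chosen after the results were seen, crossing was 42.2% for gained and 40.2% for lost loops, a difference of 1.96 points (0.367 to 3.54), and passing over an anchor differed by 0.852 points (0.0411 to 1.66). Kept loops crossed in 39.8% of cases with the same weights, 2.39 points (0.669 to 4.11) below gained loops. A comparison within the same anchor and the same span class gave a like size. It used 6753 combinations of an anchor and a span class with both lost and gained loops (4252 anchors), in which the mean share crossing was 39.0% for lost and 41.5% for gained loops. Gained loops crossed more in 1208 combinations (17.9%), equally in 4552 (67.4%) and less in 993 (14.7%). The mean number of CTCF anchors passed over was 8.82 for lost and 9.15 for gained loops, higher for gained in 3192 combinations (47.3%) and lower in 2582 (38.2%). Many of these combinations share loops or neighbouring anchors and are not independent.

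The gained loops with the highest counts among those passing over a CTCF anchor each used an anchor that was not listed at 0 h. They joined chromosome 19, 52096409 to 52098669, to 52207002 to 52208153 (count 33, 3 CTCF anchors between), chromosome 17, 26987745 to 26989862, to 27044254 to 27047815 (count 28, 1 between), and chromosome 12, 120553142 to 120555737, to 120739379 to 120741058 (count 23, 3 between). Their other anchors were well connected at 0 h, with 30, 33 and 19 partners. None of these 3 loops was found in the wild-type ZNF143, CTCF or RAD21 list. The CTCF loops at the passed anchors had at most 2, 12 and 3 counts, and only the chromosome 17 loop crossed a CTCF loop of at least 5 counts.

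The corresponding lost loops mirrored this pattern, and all 3 were loops of CTCF and RAD21 in wild-type cells. The loop between 30855465 to 30856933 and 30932842 to 30936136 on chromosome 16 had a count of 57 at 0 h, and wild-type counts of 11 for ZNF143, 9 for CTCF and 13 for RAD21. The loop between 85644845 to 85646777 and 85777912 to 85780109 on chromosome 2 had a count of 53, and wild-type counts of 35, 34 and 63. The loop between 49297700 to 49299717 and 49345278 to 49347152 on chromosome 19 had a count of 50, and wild-type counts of 42, 12 and 7. Each lost 1 of its anchors altogether: the anchors that went had 9, 7 and 24 partners at 0 h and none at 24 h, whereas the opposite anchors had 38, 17 and 68 at 0 h and still 35, 12 and 73 at 24 h.

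The 3 strongest kept loops among those passing over a CTCF anchor had higher counts at 24 h. They joined chromosome 1, 156709697 to 156712115, to 156735780 to 156738299 (262 at 0 h, 400 at 24 h), 156697625 to 156699097 to the same right anchor (138 and 157), and chromosome 19, 45907677 to 45909809, to 45987998 to 45989832 (97 and 192). Both chromosome 1 loops were in the wild-type ZNF143 list, with counts of 100 and 102, and in neither the CTCF nor the RAD21 list. The chromosome 19 loop was in all 3 wild-type lists and passed over 4 CTCF anchors, whose strongest loop had 33 counts.

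The CTCF anchors passed over by the most gained loops of at most 500 kb lay together on chromosome 19, beside the most connected ZNF143 anchors, at 49215742 to 49217128, 49176617 to 49179767 and 49071494 to 49072752. Each was passed over by 59 gained loops, with 52, 39 and 40 lost and 118, 118 and 99 kept loops. Their own CTCF loops were weak, with highest counts of 6, 2 and 4. At the latter 2 of them ZNF143 anchors had 22 and 20 partners at 0 h and 0 and 0 at 24 h, so these places no longer anchored listed ZNF143 loops while loops between their neighbours passed over them.

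Loops with wild-type CTCF anchors at both ends were a smaller part of the gained than of the lost loops. Both ends lay at wild-type CTCF anchors in 31.6% of lost and 18.7% of gained loops, 1 end in 44.2% and 46.9%, and neither end in 24.2% and 34.4%. The shares of lost loops were near those of all 0 h loops, which were 31.0% for both ends, 44.1% for 1 end and 24.9% for neither. The shares of 0 h loops kept were close: 23.3% (22.5 to 24.0) with CTCF at both ends, 24.4% (23.8 to 25.0) with 1 and 26.9% (26.0 to 27.7) with none. Gained loops were longer than lost loops in each of these classes, with medians of 464 and 237 kb for both ends, 481 and 285 kb for 1 end and 438 and 263 kb for no end.

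The same measures were taken between wild-type ZNF143 loops and the 0 h list, a pair of ZNF143 lists neither of which followed auxin. That pair shares the 0 h library with the comparison above and differs in cell line and list size (11981 and 40405 loops), so the values are set side by side without a test. Complete switching was 31.4% there and 34.1% with auxin, and gained partners were farther at 67.9% (66.6 to 69.2) of anchors there and 64.4% with auxin, so in the lists as deposited both shares were of like size without auxin. Anchors with more minus those with fewer CTCF anchors before gained partners came to 48.4 points between the cell lines and 27.5 points with auxin, and the span-weighted excess of passing over an anchor was 1.77 points (0.750 to 2.79) and 2.86 points. With at least 4 counts these were 0.459 and 36.9 points, and 1.21 points (-0.142 to 2.55) and 3.46 points (2.13 to 4.80). Under that requirement, set on the CTCF-AID lists and bringing list sizes closer, the share farther was 49.5% (47.8 to 51.3) between the cell lines and 67.6% (65.6 to 69.5) with auxin, whereas complete switching was 27.9% and 24.2%, no more common with auxin. The span-weighted excess of crossing in gained over lost loops was 1.52 points (-0.0428 to 3.08) between the cell lines and 7.66 points with auxin, and with 4 counts it was 0.530 points (-0.995 to 2.06) and 12.0 points (10.1 to 13.9). From wild-type cells to the 24 h list, a pair without the 0 h library that was compared only with at least 4 counts at 24 h, it was 10.5 points (8.60 to 12.3).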

How the data were processed

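The authors deposited 1 loop list per library, with a pair of anchors and a whole-number count per line. Per the submitters' processing notes, HiC-Pro and hg19 were used. The loop caller, filters and pooling of runs are not given in the sources used here, and anchors called separately in each library affect every measure of presence and degree. Counts were used as deposited, and starts were printed 1 higher than in the files, whose abutting anchors share an end and a start. Lists of ZNF143-deleted cells were not used here. Anchors were merged, loops matched (5 kb) and CTCF anchors counted in Python 3.11.15 with pandas 2.3.3 and numpy 2.4.6. The code was checked on simulated loops. Shares carry Wilson, differences Newcombe and span-weighted differences normal 95% intervals (statsmodels 0.14.6). Read pairs are not independent molecules and loops share anchors, so real uncertainty is larger. Named anchors and loops were the 3 leading ones by each of 8 rules (degree at 0 h or 24 h, fall or rise in degree, complete switching, and the strongest gained, lost or kept loops passing over a CTCF anchor), with the 3 CTCF anchors passed over most, chromosome 8 left out. The loops, measures and rules were chosen with earlier results of these data known.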

Additional observations from a re-analysis of the deposited data

How the results depend on the processing

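No paired analysis was possible because each group holds 1 library. Of 80 combinations of a result and an alternative, 31 gave a value inside the 95% interval of the main value, 47 gave one outside it with the same sign, and 2 changed sign. Why values changed was not tested. The 2 sign changes concern the share of shared anchors with more partners minus that with fewer, which was -30.8 points (-32.6 to -29.0) as reported, -7.73 and -2.03 points at minimum counts of 3 and 4 in both lists, and 7.30 and 16.9 points at 5 and 10. It was -34.2 points with anchors merged across 5 kb gaps and -33.6 points without chromosome 19. At minimum counts of 3, 4 and 5 the ratio of mean degree was 1.27, 1.28 and 1.26, and it was 1.06 without chromosome 19. At minimum counts of 3, 4, 5 and 10, pair retention was 71.4%, 72.1%, 78.2% and 87.1%, complete switching 24.4%, 24.2%, 18.1% and 11.3%, and the share of anchors with farther gained partners 68.1%, 67.6%, 68.9% and 68.7%. At the same minimums, anchors with more minus fewer CTCF anchors before gained partners (27.5 points as reported, 25.3 to 29.7) came to 38.7, 36.9, 40.8 and 45.2 points, the density ratio to 1.27, 1.25, 1.24 and 1.13, and the crossing difference to 11.6, 12.0, 12.2 and 13.0 points. The passing difference was 3.55 points at 3, and at 10 it was 2.77 points (-0.856 to 6.39), an interval that includes 0. The degree ratio of CTCF to other anchors was 0.865 at 5, 0.864 at 10 and 0.848 with 5 kb gaps merged, where complete switching was 31.6%. With anchors of CTCF loops of at least 5 counts, the passing difference was 7.06 points, the density ratio 1.23 and the difference in CTCF anchors before partners 23.7 points. With CTCF anchors at RAD21 anchors the passing difference was 4.29 points, and with CTCF loops of at least 10 counts the crossing difference was 3.49 points. Loops matched within 0 or 10 kb, and all CTCF loops for crossing, left each difference between gained and lost loops inside its interval. Finer span classes, loops between anchors present at both times and leaving out chromosome 19 were chosen after seeing the data. The finer classes moved no result outside its interval. Loops between anchors present at both times gave a passing difference of 0.852 points, a density ratio of 1.04 and a crossing difference of 1.96 points. Without chromosome 19, pair retention was 52.1% and complete switching 36.9%.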

Other observations

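Chromosome 19 held a larger part of the ZNF143 loops after auxin. It carried 7951 of the 0 h loops (19.7%) and 5876 of the 24 h loops (28.5%), a ratio of 0.739, the highest of the 23 chromosomes, whose median ratio was 0.422 and whose lowest was 0.221, on chromosome 18. The share of 0 h loops kept was 42.3% on chromosome 19, against a median of 18.4% over chromosomes and 6.76% on chromosome X. Mean degree was higher at 24 h on 16 of the 23 chromosomes, among them chromosome 16 (4.34 and 4.96), and lower on chromosome 18 (2.11 and 1.68).

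Loops also joined anchors into connected groups. At 0 h there were 1480 such groups and at 24 h 779, of which 710 (48.0%) and 337 (43.3%) were isolated pairs of anchors. The largest group at both times lay on chromosome 19 and covered nearly the same stretch, 32830093 to 59093259 at 0 h with 938 anchors and 32895721 to 59088201 at 24 h with 607. The share of connected triples of anchors that were closed into triangles, a number between 0 and 1, was 0.236 at 0 h and 0.334 at 24 h.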
